A study of Anguilla anguilla with 6 samples.

Results

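The enzymes described here are the 17β-hydroxysteroid dehydrogenases (17β-HSDs) of the European eel (Anguilla anguilla), followed in the ovaries of hormone-injected fish. They were the gene models that the authors' deposited table names dhb with a number, or describes as a 17-beta-hydroxysteroid dehydrogenase or an estradiol 17-beta-dehydrogenase. The rule found 10 of 45974 models, 8 by name and 6 by description, and these stood for 6 enzyme types: type 1 (g21029), type 4 (g12335, g27140, g41358 and g34912), type 6 (g31464), type 8 (g25291), type 12 (g3870 and g28059) and type 14 (g12474). The rule itself uses names and descriptions and no measured value, but it was written with earlier results of these data known. The compared groups were 4 eels labelled responders and 2 labelled non-responders, and both had been raised on a commercial farm and given 4 weekly injections of gonadotropins. The labels do not define a response, name no strain or age, and list no uninjected animal, so both groups share the hormone treatment. Each library came from 1 animal whose anterior, middle and posterior ovary pieces had been pooled, and mRNA libraries were sequenced.

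The 17β-HSDs catalyse the last step in making the active sex steroids: they reduce or oxidise the oxygen group at carbon 17, which switches estrogens and androgens between a weak and a potent form. In vertebrate ovaries type 1 reduces estrone to estradiol, the estrogen that in fish drives the liver to make vitellogenin for the yolk. Most are short-chain dehydrogenases, and several bear the family name although their main known work is on other substrates: fatty acyl chains for types 4, 8 and 12, and retinoids and androgens for relatives of type 6.

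All levels below are mean scaled counts, meaning counts divided by a size factor per library and averaged within a group by the authors. The table gives no spread beside these means and values per animal were not used here, so each carries no SD. The authors' DESeq p-values test the ratio between the groups for each model and give no error for a level. Those p-values set 4 animals against 2, and they rest on the spread the tool estimated between libraries. Levels are ranked between members per length, as scaled counts per kilobase (kb) of the longest transcript. Sums over several models are scaled counts not divided by length, unless given per kb. Calls rest on the authors' adjusted p at a threshold of 0.05, which 0.183% of all models with a p met, 68 of 37072. Of the 10 members, 0 were called by DESeq and 1, type 1, had an unadjusted p under 0.05, a level that 3.67% of all models with a p met.

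Levels per length differed widely between the members. Of the 10 models, 7 averaged 5 or more scaled counts across the 6 libraries, and the 3 below that level were all models of type 4. The type 6 model stood highest per length in both groups, at 6643 scaled counts per kb in responders and 6411 in non-responders. It was above 99.3% of all models with a mean of at least 5 in responders and above 99.2% of them in non-responders. It made up 79.9% of the summed level per length of the family in responders and 83.8% in non-responders. That share depends on its length of 487 bases, while members with a mean of at least 5 ranged from 440 to 2505 bases. Undivided by length, type 6 had 3235 of the family's 5880 scaled counts in responders and 3122 of 5279 in non-responders. Below type 6 in responders came type 14 at 552, type 12 (g3870) at 469.7, type 1 at 334, type 8 at 177 and the second type 12 model (g28059) at 115 scaled counts per kb. In non-responders the order differed. There type 12 (g3870) stood at 528, type 14 at 323, type 8 at 176, type 1 at 113 and g28059 at 67.9 scaled counts per kb. Type 1 was thus 1.88 times as high as type 8 per length in responders and 0.64 times as high in non-responders. The ratio of these levels was not tested, and neighbours in either order cannot be separated without a spread. It also rests on model lengths of 768 bases for type 1 and 440 bases for type 8. Whether these models are whole transcripts was not checked. The middle model of the table (mean of at least 5) stood at 63.7 scaled counts per kb in responders and 64.0 in non-responders.

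**Figure D1:**
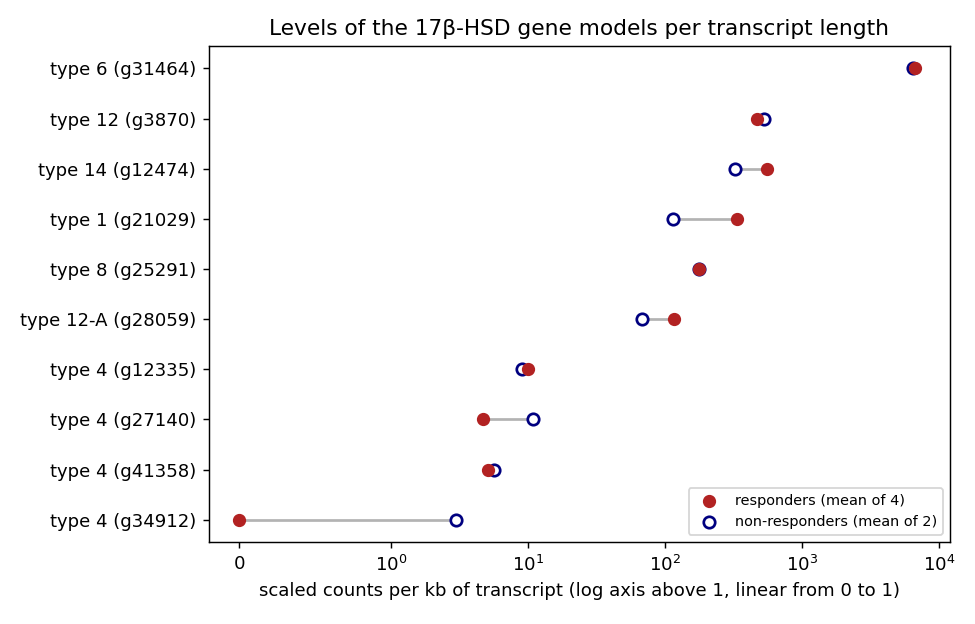
Level of each 17β-HSD model in scaled counts per kb of transcript (horizontal, log axis above 1) in responders (filled, mean of 4 libraries) and non-responders (open, mean of 2 libraries), ordered by the mean over all libraries. Type 6 stands at 6643 and 6411, type 1 is separated at 334 against 113, and the 4 type 4 models lie at the bottom, with g34912 listed at 0 in responders.

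The model named for type 1, the estrone reductase of other vertebrates, had a higher mean in responders but did not pass the authors' adjusted threshold. The model g21029 had 257 scaled counts in responders and 86.8 in non-responders by the authors' deposited table, a ratio of 2.96 (log2 1.57, unadjusted p = 1.2e-04, DESeq adjusted p = 0.057). Its p was the 77th smallest of 37072 in the authors' deposited table, and the largest adjusted p among called models was 0.048. When the authors' p-values were re-adjusted over the 23266 models with a mean of at least 5, type 1 passed at an adjusted p = 0.036, as 0.352% of those models did. Over the 16971 models with a mean of at least 20 its re-adjusted DESeq p was 0.029, and 0.53% of those models passed. The call for type 1 depends on which models the adjustment covers. A log2 ratio at least as high was found for 3.34% of the models averaging 5 or more. On the scale per length, type 1 stood above 82.5% of those models in responders and above 62.9% in non-responders.

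Other enzymes on the route to estradiol did not pass either. CYP17A1, whose hydroxylase and lyase steps lead to the androgens, and CYP19A1, the aromatase that turns androgens into estrogens, were singled out after their values were seen. The longest pair of CYP17A1 models had 556 against 222 scaled counts (g10692, log2 1.33, unadjusted p = 0.061) and 392 against 179 (g22995, log2 1.13, unadjusted p = 0.083) in responders against non-responders in the authors' deposited table. CYP19A1 was at 11.9 scaled counts in responders and 23.0 in non-responders for g9348 (log2 -0.95, unadjusted p = 0.096) in the authors' deposited table. For g9349 it was at 21.2 in responders and 24.3 in non-responders (log2 -0.20, unadjusted p = 0.70) in the authors' deposited table. The adjusted p was 1 for each of these 4 models. Per length, type 1 stood at 1.89 times the CYP17A1 model g10692 in responders and at 1.60 times in non-responders. Against the aromatase model g9349 it stood at 15.3 times in responders and 4.49 times in non-responders, and against g9348 at 77.2 times in responders and 13.5 times in non-responders. These ratios were not tested, and those against aromatase rest on models with only 11.9 to 24.3 scaled counts.

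Type 14 (also called DHRS10 or retSDR3) oxidises estradiol and testosterone in assays of the human enzyme. Its model g12474 had 1025 scaled counts in responders and 599.6 in non-responders by the authors' deposited table (log2 0.77, unadjusted p = 0.35, adjusted p = 1). The second type 12 model had almost the same ratio at a lower mean level and with a smaller p. Set against type 14 per length, type 1 was 0.61 times as high in responders and 0.35 times as high in non-responders.

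Types 6 and 8 differed little between the group means. Type 6, which in rat acts on androgens reduced at carbon 3, had 3235 scaled counts in responders and 3122 in non-responders for g31464 in the authors' deposited table (log2 0.05, unadjusted p = 0.94). Type 8, a mitochondrial enzyme that oxidises estradiol and forms the ketoacyl reductase of mitochondrial fatty acid synthesis together with CBR4, had 78.1 scaled counts in responders and 77.6 in non-responders for g25291 in the authors' deposited table (log2 0.01, unadjusted p = 0.99). A p this large does not show that the levels are equal, and no interval can be set around the ratios from group means.

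Type 12, the ketoacyl reductase of the microsomal cycle that lengthens fatty acids, had a pair of models that leaned in opposite directions. The longer, better expressed model g3870 had 1177 scaled counts in responders and 1322 in non-responders by the authors' deposited table (log2 -0.17, unadjusted p = 0.58). The model g28059, whose best match is zebrafish 12-A, had 98.1 in responders and 57.7 in non-responders by the authors' deposited table (log2 0.77, unadjusted p = 0.073, adjusted p = 1). Per length the second stood at 0.25 of the first in responders and at 0.13 in non-responders. Summed, the pair had 1275 scaled counts in responders and 1380.0 in non-responders (log2 -0.11). The 2 can be separate genes or pieces of 1 gene, which the table does not settle.

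Type 4, the peroxisomal enzyme with hydratase and dehydrogenase activity for long and branched acyl chains, was matched by 4 short and barely expressed models. They were 797, 353, 185 and 182 bases long. The longest, g12335, had 7.88 scaled counts in responders and 7.12 in non-responders by the authors' deposited table (log2 0.15). The next, g27140, had 1.63 in responders and 3.84 in non-responders (log2 -1.23, unadjusted p = 0.38) in the authors' deposited table. The third, g41358, had 0.93 in responders and 1.02 in non-responders, and the last, g34912, was listed at 0 in responders and had 0.55 in non-responders by the authors' deposited table. Together the 4 models had 10.4 scaled counts in responders and 12.5 in non-responders, or 6.88 and 8.26 scaled counts per kb. No difference was detectable at these levels, and the models cover only the stretches of the gene that were assembled under this name.

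Of the 10 members as a list, 6 had a higher mean in responders and 4 a lower one, and all but 1 of the 7 with a mean of at least 5 were higher. The median log2 of those 7 was 0.15, beside a median of 0.01 over all 23266 models with a mean of at least 5, of which 50.6% were higher in responders. Summed over all models, the authors' deposited table holds 11695525 scaled counts for responders and 12635190 for non-responders, and rescaling them to be equal would add 0.11 to every log2. The family summed to 5880.2 scaled counts in responders and 5279 in non-responders (log2 0.16). Without type 6 the other 9 models summed to 2645 in responders and 2156 in non-responders (log2 0.29).

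**Figure D2:**
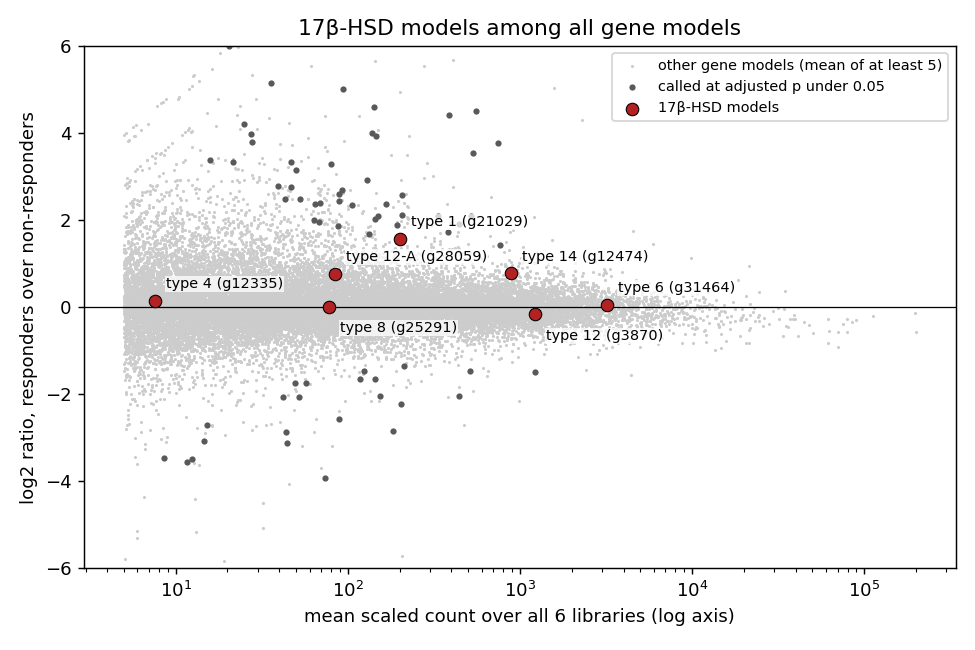
Log2 ratio of responders over non-responders (vertical) against the mean scaled count over all 6 libraries (horizontal, log axis) for gene models with a mean of at least 5, with called models in dark grey and the 7 17β-HSD models of that level in red. Type 1 lies at 1.57, types 12-A and 14 at 0.77, and the other 4 models between -0.17 and 0.15. Of the other models, 11 lie beyond a log2 of 6 in size and 18 have no finite ratio, and these are not drawn.

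The annotation shows how far the family name can be read as a function. Matches to the named protein had a similarity of 0.471 for type 14, 0.578 for type 1, 0.697 for type 6 and 0.829 for type 8. The authors' gene ontology terms give estradiol 17-beta-dehydrogenase activity to 8 of the 10 models, but not to type 1 (g21029) or to the longer type 12 model (g3870). For g21029 the listed activity is retinol dehydrogenase, beside estrogen biosynthesis and retinol metabolism as processes, and g31464 (type 6) is the only other member with the retinol dehydrogenase term. Type 1 is, in vertebrates, a close relative of retinol dehydrogenase 8 (RDH8), and type 6 of the retinol dehydrogenases RDH5 and RDH16. Separate models named RDH8 were low: g8828 had 6.18 scaled counts in responders and 6.41 in non-responders by the authors' deposited table. A second, g6841, had 0.27 in responders and was listed at 0 in non-responders, and the third, g27891, was listed at 0 in both groups in the authors' deposited table. Models named for other retinol dehydrogenases were abundant. RDH7 (g29984) had 2402 scaled counts in responders and 2007 in non-responders (log2 0.26, unadjusted p = 0.49), and RDH3 (g7538) had 2376 in responders and 1495 in non-responders (log2 0.67, unadjusted p = 0.057), in the authors' deposited table. Per length RDH7 stood at 3906 scaled counts per kb in responders and 3263 in non-responders, and RDH3 at 813 in responders and 511 in non-responders. These retinol dehydrogenase models were looked up after the ontology terms had been seen. The names thus rest on the best protein match, and no sequence of the models was used to check them.

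One further enzyme of the family falls outside the rule because only its alternate description bears the family name. The type 10 enzyme (hcd2, g11821), which breaks down isoleucine and is a subunit of mitochondrial ribonuclease P, had 319 scaled counts in responders and 309 in non-responders by the authors' deposited table (log2 0.04, unadjusted p = 0.98). The RefSeq annotation of the eel assembly fAngAng1.pri names 8 genes of the family: hsd17b1, hsd17b3, hsd17b4, hsd17b7, hsd17b8, hsd17b10, hsd17b12a and hsd17b14. Of these, 5 are of a type that has a member here. None is named hsd17b6, so the type 6 model (g31464, 487 bases), the highest member per length, has no counterpart of that name in the annotation. Types 3 and 7 were matched by no model and were not analysed here. No identifier of the deposited table was found in that annotation, so no position is given.

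The partners of each enzyme were followed as lists, none of which had a called model. The steroid synthesis list had 35 models with a mean of at least 5, from only 14 genes, and each model of a gene was counted separately. Of the 35 models, 25 were higher and 10 lower in responders, at a median log2 of 0.32. Of all models with a mean of at least 5, 5.61% had an unadjusted p under 0.05, and in this list 2 models did. These were cytochrome b5 (g2029), an electron donor that favours the lyase step of CYP17A1, at 152 scaled counts in responders and 70.2 in non-responders (log2 1.12, unadjusted p = 0.032), and the nuclear receptor NR5A2 (g8768), a regulator of steroidogenic genes, at 80.1 and 42.0 (log2 0.93, unadjusted p = 0.043), in the authors' deposited table. The adjusted p of both was 1. Other models of the same 2 genes differed less in the authors' deposited table. Cytochrome b5 was at log2 0.18 for g3304 (5466 scaled counts in responders and 4818 in non-responders) and 0.25 for g8022. NR5A2 was at log2 -0.07 for g19817 (131 and 137) and 0.27 for g8767. CYP11A1, which cuts the side chain of cholesterol, had 144 scaled counts in responders and 112 in non-responders (g4682, log2 0.36) in the authors' deposited table. The best expressed model of 3β-HSD had 546 in responders and 671 in non-responders (g10190, log2 -0.30) in the authors' deposited table. The longest with a mean of at least 5, named for type 7 of the 3β-HSDs (g3996), had 38.0 in responders and 69.8 in non-responders (log2 -0.88, unadjusted p = 0.15) in the authors' deposited table. It was listed by its entry name, and whether it serves sex steroid synthesis was not checked. These models were picked after their values were seen.

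Fatty acid partners leaned in no single direction. The elongation list of type 12 had 12 models, 7 higher and 5 lower, at a median log2 of 0.05. Its smallest p-values belonged to the elongases ELOVL5 (g6746, 131 scaled counts in responders and 62.9 in non-responders, unadjusted p = 0.016) and ELOVL6 (g18541, 46.6 and 87.5, unadjusted p = 0.024) in the authors' deposited table. The peroxisomal list of type 4 had 15 models, 9 higher and 6 lower, at a median log2 of 0.08. The 6 models of mitochondrial fatty acid synthesis, the pathway of type 8, had a median log2 of -0.09 with 2 higher and 4 lower, led by the acyl carrier protein NDUFAB1 (g8812, log2 -0.44, unadjusted p = 0.18) and the reductase MECR (g23954, log2 -0.31, unadjusted p = 0.37) in the authors' deposited table. The 5 models of mitochondrial ribonuclease P and isoleucine breakdown, around type 10, had a median log2 of 0.02, with ECHS1 (g15896) at log2 -0.33 and PRORP (g5144) at log2 0.13 in the authors' deposited table.

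Sterol and lipid droplet lists were followed because types 7, 11 and 13 work there in mammals. In the cholesterol list 5 of 8 models were higher and 3 lower, with a median log2 of 0.30. SC5D (g23363), which introduces a double bond into the sterol ring, had 7740 scaled counts in responders and 11823 in non-responders (log2 -0.61, unadjusted p = 0.058), and DHCR7 (g1462), which catalyses the last reduction to cholesterol, had 684 and 467 (log2 0.55, unadjusted p = 0.11), in the authors' deposited table. Over all models with a mean of at least 5, 50.6% were higher in responders and 5.61% had an unadjusted p under 0.05. In the lipid droplet list 10 of 16 models were higher and 6 lower (median log2 0.05), with 3 at an unadjusted p under 0.05. The smallest p-values in the authors' deposited table were those of CIDEA (g9014), a droplet protein, at 12613 scaled counts in responders and 21767 in non-responders (unadjusted p = 0.010), and of perilipin-2 (g14812), which coats droplets, at 881 and 507 (unadjusted p = 0.025). Other models of these genes differed less. Perilipin-2 was at log2 -0.46 for g30709, 0.07 for g23309 and 0.04 for g31184, and CIDEA was at -0.21 for g1288.

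**Figure D3:**
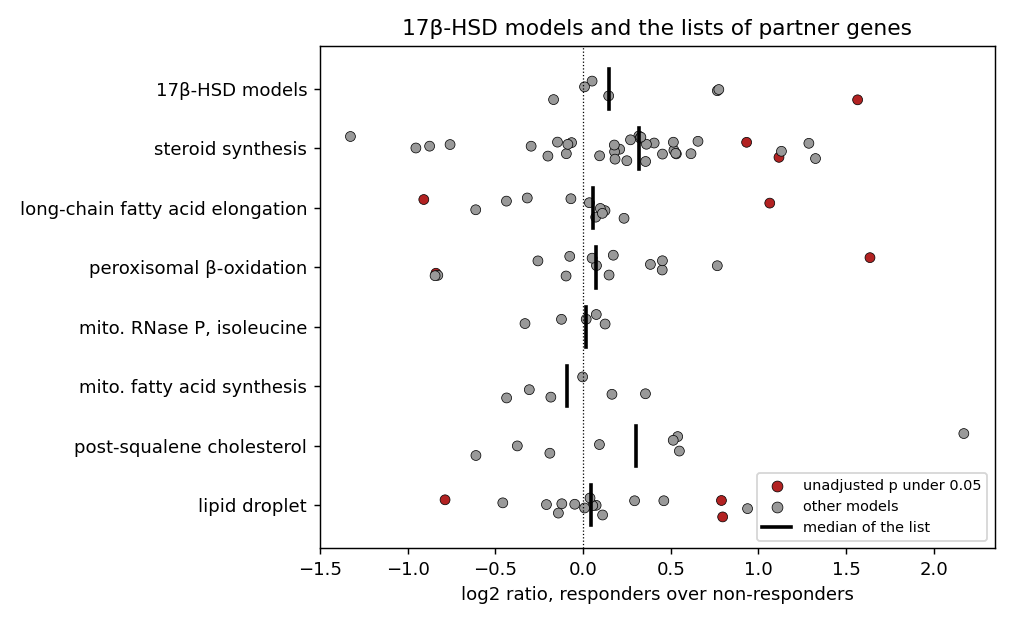
Log2 ratio of responders over non-responders for each model with a mean of at least 5 (points, vertical scatter for legibility only) in the 17β-HSD family and in 7 lists of partner genes, with the median of each list as a bar and models at an unadjusted p under 0.05 in red. Medians lie between -0.09 and 0.32, and type 1 is the red point of the family at 1.57.

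Cell makeup was not measured. Marker lists were read instead, but in bulk ovary fewer cells of a type and less RNA per cell cannot be told apart. Oocyte markers such as the egg envelope proteins were abundant, at a summed 449192 scaled counts in responders and 671771 in non-responders. Of their 20 models, 19 were lower in responders (median log2 -0.39), 3 of them at an unadjusted p under 0.05. Of all 23266 models with a mean of at least 5, 11485 were lower and 5.61% had an unadjusted p under 0.05. The 20 oocyte models came from only 8 genes, with several models each of ZP3 and ZP4, so they are not separate markers. Markers of the follicle's somatic cells, where vertebrates make estrogens, were low: their 10 models summed to 257 in responders and 217 in non-responders, only follistatin was listed at 0 in a group (non-responders), and 4 of the 6 with a mean of at least 5 were higher in responders (median log2 0.29). FOXL2 (g429), a transcription factor of granulosa cells, had 191 scaled counts in responders and 143 in non-responders (log2 0.42, unadjusted p = 0.30) in the authors' deposited table. The lower models of this list were both of the aromatase CYP19A1, at log2 -0.95 for g9348 and -0.20 for g9349. Medians were 0.93 over 6 adipocyte, 0.70 over 5 leukocyte, 0.09 over 9 smooth muscle and -0.10 over 6 endothelial models, and the erythrocyte list had 1 model at -0.81. The 5 leukocyte models came from only 3 genes, and none had an unadjusted p under 0.05. Of these, 3 were higher and 2 lower in responders, with PTPRC (g6670) at log2 -0.18. Within the endothelial list the junction protein VE-cadherin (CDH5) had 37.4 scaled counts in responders and 95.4 in non-responders for g17569 (log2 -1.35, unadjusted p = 7.2e-04, adjusted p = 0.19) in the authors' deposited table. Another CDH5 model, g38811, with a length of only 209 bases, was at log2 -1.63 (unadjusted p = 0.050) in the authors' deposited table. The longest CDH5 model, g3545 (5300 bases), leaned the other way, at log2 0.26 (unadjusted p = 0.89) in the authors' deposited table. The remaining endothelial models were at log2 -0.29 for KDR (g8472), 0.16 for TIE1 (g2753) and 0.09 for VWF (g357). Summed levels in responders against non-responders were 17943 against 18316 for adipocyte, 92.8 against 70.9 for leukocyte, 3204 against 3345 for smooth muscle, 137 against 208 for endothelial and 23.2 against 39.0 for erythrocyte markers. Most of the adipocyte sum was FABP4 (g3192), at 17646 and 18197, and the 5 other adipocyte models with a mean of at least 5 were higher in responders. Most of the smooth muscle sum was MYL9 (g11086), at 2739 and 2870. The part of these marker shifts in the type 1 ratio was not tested.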

How the data were processed

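Ovary RNA of 6 eels (4 responders, 2 non-responders by the phenotype label) was sequenced with 1 mRNA library per animal. The only source of values was the authors' comparison table, credited to DESeq by its name, with 45974 gene models and 1 further line without values. For the version, aligner, counter and build the sources used here give nothing. Per the file headers the authors deposited base means, a signal of counts divided by size factors, over all libraries and per condition A and B. They also deposited the fold, which equals the ratio B over A, and a p-value with an adjusted p-value. The overall mean equals the condition means weighted 2 to 4 (largest deviation 3.5e-10), so A was read as the 2 non-responders and B as the 4 responders. The table's similarity of the best protein match, deposited by the authors as a fraction, and its transcript lengths were used as given.

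A further 6 columns of values per library bear names that match no label and were not used. Depth per library, the spread between animals, a count test and fits without a replicate were therefore not computed, and the design's provision for the authors' own p-values applied. The 8902 models that carry no p average 0.

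From the table were computed the log2 of the deposited fold, levels per kb, and Benjamini-Hochberg adjustment over subsets of models (checked on simulated p-values). Partner and marker lists were matched by entry name, and each model of a gene counted separately in them. HTD2, a thioester dehydratase, was dropped from the elongation list once its description was read. All members were named. From each list came the called models and, with a mean of at least 5, the 2 genes with the smallest p. Some models that this rule names are not reported here. Members and lists were chosen with earlier results of these data known. Python 3.11.15, pandas 2.3.3, numpy 2.4.6 and matplotlib 3.10.9 were used.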

Additional observations from a re-analysis of the deposited data

How the results depend on the processing

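The count of members past the adjusted p was 0 as deposited and 1, type 1, when the p was re-adjusted over models averaging at least 5 or at least 20 scaled counts. Fewer models enter those adjustments. The median log2 of the 7 members with a mean of at least 5 was 0.15. It was 0.030 over all 10 members, 0.41 with a mean of at least 20, 0.26 with sums rescaled to be equal, 0.41 for members found by description, 0.13 with a pseudocount of 1 and 0.10 with 1 model per enzyme type. Members found by name gave the same median. Of 31 alternative values for single models, 29 kept their direction and their side of the threshold and 2, both of type 1, came to pass it. That count is largely fixed in advance and is no measure of robustness. Rescaled sums and the pseudocount kept the deposited adjusted p, so they could not move a model across the threshold. The pseudocount also cannot reverse a ratio, and re-adjustment kept the deposited log2. The DESeq2 test, other size factors and fits without a replicate were not run, since they need values per library. No paired analysis was possible because the labels pair no animals and values per library were not used.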
